A study of Homo sapiens with 8 samples.

Results

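The nuclear genes of respiratory complexes II to V were followed in MDA-MB-231 cells kept at 20% or 1% O2. Members were chosen by symbol: SDHA, SDHB, SDHC, SDHD, CYC1, CYCS, and every symbol that starts with UQCR, COX4, COX5, COX6, COX7, COX8 or ATP5. The rule found 50 of the 19583 rows of the table, which uses older gene symbols, so that ATP5A1 stands for the current ATP5F1A and ATP5G1 for ATP5MC1. Of these 50 genes, 43 had a mean of at least 1 normalised read count over the 8 libraries and were tested. They hold 4 genes of complex II, 9 of complex III, cytochrome c, 10 of complex IV and 15 of complex V. The other 4 were COX7A2L, which helps to join complexes into supercomplexes, ATP5S and ATP5SL, whose current names are DMAC2L and DMAC2, and the readthrough transcript ATP5J2-PTCD1, which shares sequence with ATP5J2. The mitochondrially encoded subunits do not fall under the rule and were not analysed here.

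Complex II, succinate dehydrogenase, passes electrons from the citric acid cycle to ubiquinone. Complex III hands them to cytochrome c, and complex IV passes them on to oxygen and pumps protons across the inner mitochondrial membrane. Complex V, the ATP synthase, lets these protons flow back through a ring of c subunits and makes ATP in its catalytic head. At low oxygen, cells are known to turn from respiration to glycolysis, partly through the hypoxia-inducible factors (HIFs), and the promoters of many respiratory genes are known to bind the factors NRF1, GABP (of the ETS family) and YY1.

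MDA-MB-231 is a human breast cancer line without estrogen and progesterone receptors. The 4 groups were cells labelled shSC (a scrambled control hairpin) or shCHD4 (a hairpin against CHD4, the ATPase of the NuRD chromatin complex), each at 20% O2 or at 1% O2 for 24 hours, with 2 libraries a group. All groups grew in the same serum-containing medium, and the labels do not say how many clones or hairpins were used or whether replicate libraries are separate cultures. The p-values thus reflect spread between these 8 libraries alone, which may be technical. The values are normalised read counts: the authors scaled the reads of each library by a single factor, without regard to gene length. Levels of different genes are therefore not compared.

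CHD4 RNA did not follow the hairpin label. CHD4 read 299 and 298 normalised read counts in shSC at 20% O2 and 293 and 305 under the shCHD4 label, and 279.7 and 278 against 299 and 287 at 1% O2. In limma its label differences at 20% and 1% O2 were 0.00 and 0.07 on the log2 scale (adjusted p = 0.968 and 0.129). Differences between the labels are therefore given as differences between libraries labelled shSC and shCHD4. Libraries held 24947627 to 31903585 reads, and across genes, which are not independent of each other, replicate libraries correlated at r = 0.998. Tested members held 314 to 14628 reads in a library. The line's markers VIM, CD44, AXL, CAV1 and KRT18 were abundant, and ESR1, PGR, CDH1 and KRT14 were at or near 0, with EPCAM at 6.29 to 7.56 under shSC and 4.17 to 5.43 under the shCHD4 label, and GATA3 at 10.69 to 14.6 and 8.38 to 10.67. SPARC, which the design had listed as present in the line, was near 0 under shSC, at 0.372 to 0.572. Under the shCHD4 label it was at 6.08 to 6.56. Of the markers of fibroblasts, endothelium and leukocytes that the table lists, COL1A1 stood at 19.1 to 23.0 under shSC and 28.1 to 32.6 under the shCHD4 label, LUM at 0.148 to 0.414 and 1.10 to 1.34, and PECAM1 at 2.39 to 2.93 and 1.91 to 2.58, and the others were at or near 0. CD44 stood at 1248 to 1421 under shSC and 732 to 816.5 under the shCHD4 label, and CAV1 at 353 to 389 and 658 to 813. Over all 8 libraries the labels thus did not overlap for CD44, CAV1, EPCAM, GATA3, SPARC, COL1A1 and LUM. VIM was higher under the shCHD4 label within each O2 level. It read 3523 and 3471 under shSC against 5516 and 5501 at 20% O2, and 5410 and 5787 against 6856 and 6782 at 1% O2. The part of these genes in the label differences of the members was not tested.

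Promoter sequences are shown for 4 members because they carry, near the start site, the letters of factors tied to respiration or hypoxia, and because these genes stand for different patterns below. ATP5G1 and SDHB were lower at 1% O2 under both labels, COX6B1 was lower under shSC, and COX4I1 was not called for O2 but was among the members that differed most between the labels. The sequences are RefSeq promoter windows on GRCh38.p14, 5′ to 3′ on the gene's strand, from 200 bases before to 30 bases after the annotated start. Capitals mark matches on either strand to the ETS letters CCGGAAG, the YY1 letters AAGATGGCG or the HIF core ACGTG. In ATP5G1 (chr17:48892587-48892816, plus strand) the capitals are a palindrome that holds the HIF core on both strands, in SDHB (chr1:17054003-17054232, minus strand) an ETS and a YY1 match, and in COX4I1 (chr16:85799495-85799724, plus strand) and COX6B1 (chr19:35648123-35648352, plus strand) an ETS match on the opposite strand.
ATP5G1: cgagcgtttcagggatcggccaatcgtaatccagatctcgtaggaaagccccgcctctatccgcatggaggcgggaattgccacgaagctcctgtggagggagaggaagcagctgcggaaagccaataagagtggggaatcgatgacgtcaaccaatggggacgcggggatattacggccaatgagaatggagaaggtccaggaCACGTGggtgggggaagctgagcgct
SDHB: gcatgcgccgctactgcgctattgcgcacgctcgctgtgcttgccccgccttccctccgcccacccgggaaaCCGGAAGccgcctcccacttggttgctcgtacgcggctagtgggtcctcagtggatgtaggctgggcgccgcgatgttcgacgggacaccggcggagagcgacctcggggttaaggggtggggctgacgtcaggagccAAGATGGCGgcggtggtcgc
COX4I1: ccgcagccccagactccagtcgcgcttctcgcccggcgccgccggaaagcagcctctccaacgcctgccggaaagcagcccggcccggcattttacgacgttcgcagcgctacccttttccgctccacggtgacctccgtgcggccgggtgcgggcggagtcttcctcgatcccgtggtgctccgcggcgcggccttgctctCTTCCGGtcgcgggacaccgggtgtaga
COX6B1: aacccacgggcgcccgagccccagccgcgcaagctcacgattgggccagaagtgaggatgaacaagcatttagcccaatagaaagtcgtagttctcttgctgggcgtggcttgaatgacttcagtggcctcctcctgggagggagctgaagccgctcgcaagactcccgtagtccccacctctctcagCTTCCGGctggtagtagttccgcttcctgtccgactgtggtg

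The letters of ETS factors stood in 16 of 39 promoter windows of 33 tested members (41%; some genes have several windows), against 17.2% of 14611 windows of other tested genes and 10.3% of all 35116 windows of 300 bases. The YY1 letters stood in 4 windows (10.3%), against 3.47% of those of other tested genes and 1.75% of all windows. The motif of NRF1 stood in those of ATP5C1 and SDHD (5.13%, against 1.96% and 1.24%), and the letters TNAAGGTCA of the estrogen-related receptors stood in that of SDHD (2.56%, against 0.582% and 0.951%). The HIF core was as frequent in members (25.6%) as in other tested genes (25.8%; 21.4% of all windows), and the letters CCAAT stood in 41% of windows, against 35.1% and 34.6%. All 6 motifs were searched on both strands. Of the 11 genes lower at 1% O2 under shSC that had a window, 4 held the ETS letters, 4 the HIF core and 4 CCAAT. The YY1 letters stood in 1 of them, and those of NRF1 and the estrogen-related receptors in 0. Over all 33 tested members with a window these counts were 15, 9, 15, 3, 2 and 1 in the same order. Such a match is a run of letters, not a measured binding site.

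Under shSC, 16 of the 43 tested genes fell at 1% O2 and none rose. The 16 made up 37.2% of the members, beside 35.2% of all 12645 tested genes called in either direction, 17.9% lower and 17.4% higher, where called means a limma adjusted p under 0.05. The estimate was below 0 for 41 of the 43, with a median log2 difference of -0.117, against -0.011 over all tested genes. Complex V held 8 of the called genes of 15 tested, complex II 2 of 4, complex IV 3 of 10 and complex III 2 of 9, and ATP5J2-PTCD1 was the other. The count rested on single libraries: it was 7 without shSC 20% O2 replicate 1, and 7 without shSC 1% O2 replicate 1. Testing all rows unfiltered gave 4, leaving out the variance trend 6, DESeq2 10 and total-count scaling 26. In the same order 3231, 3642, 3347 and 4977 of all genes were called in either direction, against 4456 in the main test. Total-count scaling shifted the median of all genes by -0.054. ATP5A1, ATP5G1, ATP5G3 and SDHA were called under every alternative tried.

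**Figure D1:**
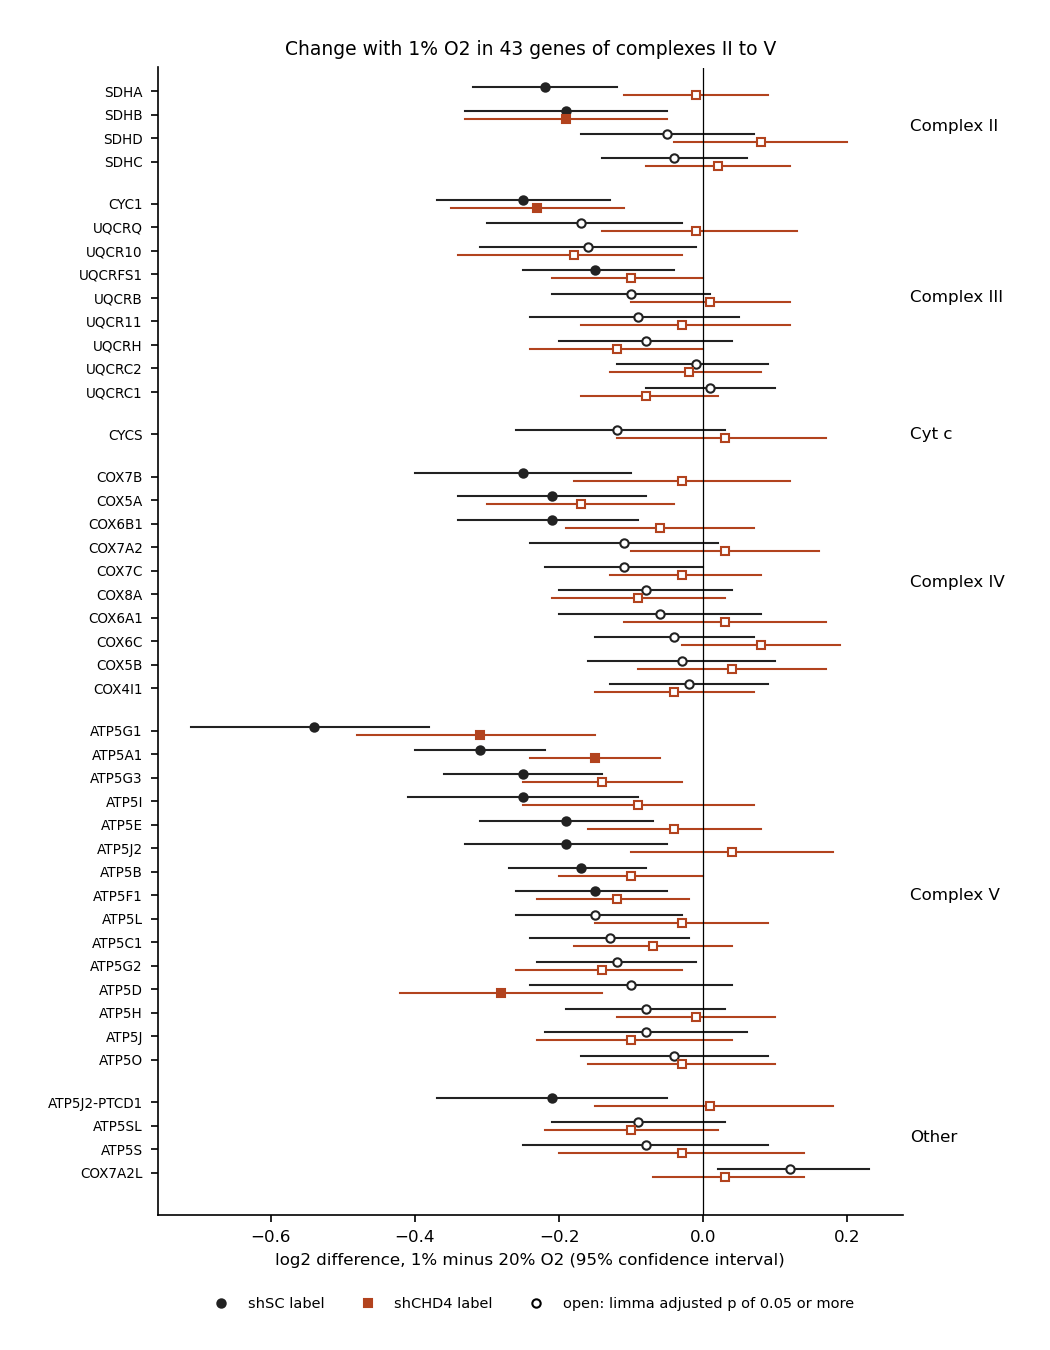
Log2 difference between 1% and 20% O2 (horizontal axis) for each of the 43 tested genes, grouped by complex, under the shSC label (black circles) and the shCHD4 label (red squares), with 95% confidence intervals; filled symbols passed the limma test. Under shSC 41 of 43 points lie below 0, ATP5G1 lowest at -0.54.

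Within complex II, both catalytic subunits fell under shSC and neither membrane anchor passed the test. SDHA, the flavoprotein that oxidises succinate, read 115 and 110.4 normalised read counts in shSC at 20% O2 and 93.6 and 100.2 at 1% O2. The groups did not overlap, and the log2 difference was -0.22 (SE 0.048, adjusted p = 0.00198). In the libraries labelled shCHD4 it stood at 134 and 131 against 133 and 129.7, a difference of -0.01 (adjusted p = 0.884). SDHB, the iron-sulfur subunit, fell by 0.19 on the log2 scale under each label (adjusted p = 0.0344 and 0.0422), and its calls were lost in 6 of the 21 alternatives under shSC and in 9 under the shCHD4 label. Those lost under shSC included DESeq2, centring on genes of like transcript length, and leaving out shSC 20% O2 replicate 1 or shSC 1% O2 replicate 2. For the membrane anchors SDHC and SDHD the estimates under shSC were -0.04 and -0.05 (adjusted p = 0.551 and 0.505).

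In complex III, CYC1 and UQCRFS1, which carry electrons, fell under shSC, and the other 7 genes did not pass the test. CYC1, cytochrome c1, which passes electrons to cytochrome c, read 192 and 176 at 20% O2 and 150.4 and 159 at 1% O2 under shSC. In those labelled shCHD4 it read 117 and 107 at 20% O2 and 92.2 and 98.9 at 1% O2. No library at 1% O2 reached a library at 20% O2 of the same label, and the log2 differences were -0.25 (adjusted p = 0.00267) and -0.23 (adjusted p = 0.00783). UQCRFS1, the Rieske iron-sulfur protein, fell by 0.15 under shSC (adjusted p = 0.0366). The core proteins UQCRC1 and UQCRC2 differed by 0.01 and -0.01 under shSC (95% intervals -0.08 to 0.10 and -0.12 to 0.09). UQCRC1 stood at 104 to 112 in all 8 libraries.

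CYCS, the soluble carrier cytochrome c, had replicates far apart in shSC at 20% O2. It read 267 and 336 in shSC at 20% O2 and 277 and 275 at 1% O2, so the groups overlapped, and the log2 difference was -0.12 (adjusted p = 0.202). With the shCHD4 label CYCS read 330.3 and 341 at 20% O2 and 332 and 351 at 1% O2. CYCS has 40 named pseudogenes, the most among the members. In all, 28 members have a named pseudogene. The sources used here do not say how reads shared with near-identical copies were counted, so the values of these genes are uncertain to that extent.

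Complex IV fell in 3 of its 10 tested subunits under shSC and in none under the shCHD4 label. COX7B, a small membrane subunit, read 58.8 and 55.2 at 20% O2 and 47.1 and 48.5 at 1% O2 under shSC, a log2 difference of -0.25 (SE 0.07, adjusted p = 0.00991). COX6B1, which connects the monomers of the complex IV dimer, read 44.9 and 45.8 against 37.1 and 41.1 (log2 difference -0.21, adjusted p = 0.0101). COX5A read 70.4 and 63.2 against 56.1 and 59.6 (log2 difference -0.21, adjusted p = 0.0153). For all 3 the libraries at 1% O2 lay below those at 20% O2. The shCHD4 estimates were -0.03 for COX7B, -0.06 for COX6B1 and -0.17 for COX5A (adjusted p = 0.778, 0.492 and 0.061).

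The remaining complex IV subunits had estimates from -0.11 to -0.02 under shSC and did not pass. COX4I1, the subunit whose isoform switch at low oxygen is a known HIF response, read 124 and 113 at 20% O2 and 114 and 119.8 at 1% O2, a difference of -0.02 (95% interval -0.13 to 0.09). Its partner isoform COX4I2 was not analysed here. COX7A2L was the tested member with the highest estimate for 1% O2 under shSC, 0.12 (92.7 and 90.5 against 101 and 98.2, adjusted p = 0.0595). It passed as higher with TMM factors, with edgeR, and after centring on neighbouring genes or on genes of like transcript length.

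Complex V held the largest falls. ATP5G1, 1 of 3 genes that encode the same c-ring subunit, read 36.7 and 31.6 in shSC at 20% O2 and 21.7 and 24.9 at 1% O2. It fell by 31.3% (log2 difference -0.54, SE 0.079, adjusted p = 4.15e-05). With the shCHD4 label it read 48.3 and 43.8 at 20% O2 and 36.8 and 37.0 at 1% O2, and fell by 19.6% (log2 difference -0.31, adjusted p = 0.00831). The groups did not overlap under either label. ATP5G3, another c-ring gene, read 84.8 and 79.4 against 67.1 and 70.6 under shSC (log2 difference -0.25, adjusted p = 0.000971) and 116 and 113 against 102 and 106 under the shCHD4 label (-0.14, adjusted p = 0.059). ATP5G2, the remaining c-ring gene, read 80.7 and 77.6 against 71.7 and 73.9 under shSC (-0.12, adjusted p = 0.0879). The 3 paralogs thus had the same sign, and only the falls of ATP5G1 and ATP5G3 under shSC and of ATP5G1 under the shCHD4 label passed.

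In the catalytic head and central stalk, 3 of 5 genes fell under shSC. ATP5A1, the alpha subunit, read 330.1 and 318 in shSC at 20% O2 and 257 and 266 at 1% O2, and fell by 19.4% (log2 difference -0.31, SE 0.043, adjusted p = 2.4e-05). In libraries labelled shCHD4 it read 444 and 422 against 386 and 395, and fell by 9.62% (log2 difference -0.15, adjusted p = 0.0208). ATP5B, the catalytic beta subunit, read 569 and 525 against 484 and 486 under shSC (-0.17, adjusted p = 0.00696) and 529 and 505 against 473 and 491 under the shCHD4 label (-0.10, adjusted p = 0.118). ATP5E, the epsilon subunit of the central stalk, read 147 and 131 against 119 and 125 under shSC (-0.19, adjusted p = 0.0133). ATP5D, the delta subunit, was called under the shCHD4 label alone, where it read 34.6 in both libraries at 20% O2 and 28.4 and 28.5 at 1% O2 (-0.28, adjusted p = 0.00674). Under shSC its estimate was -0.10 (adjusted p = 0.264).

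In the peripheral stalk and membrane part 3 of 7 genes fell under shSC. These were ATP5F1 (subunit b, -0.15, adjusted p = 0.0226), ATP5I (subunit e, -0.25, adjusted p = 0.0172) and ATP5J2 (subunit f, -0.19, adjusted p = 0.035). None of the 7 passed under the shCHD4 label, where their estimates ran from -0.12 to 0.04. ATP5O, the subunit that ties the stalk to the head, had estimates of -0.04 under shSC and -0.03 under the shCHD4 label.

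**Figure D2:**
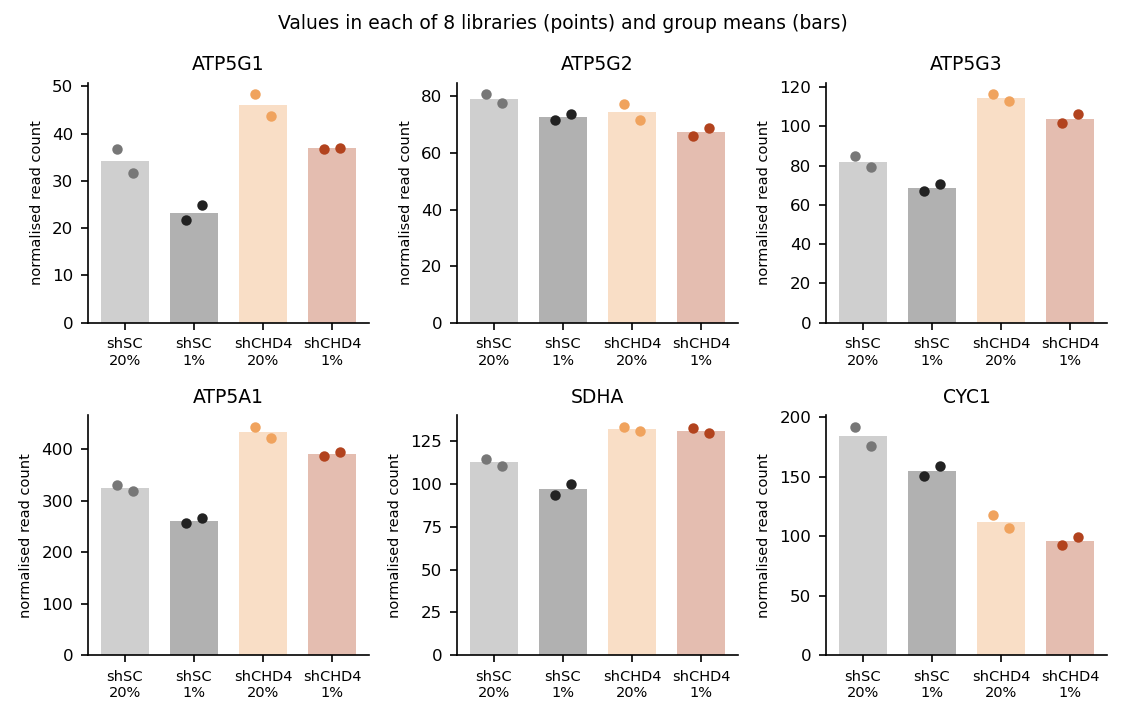
Normalised read counts (vertical axes, from 0) of the 3 c-ring genes, ATP5A1, SDHA and CYC1 in each of the 8 libraries (points) with group means (bars), by hairpin label and O2 level. ATP5G1 and ATP5A1 were lower at 1% O2 under both labels, and CYC1 was lower in every library labelled shCHD4 than in every shSC library.

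Under the shCHD4 label, 5 of the 43 genes fell at 1% O2 and none rose. These 5 (ATP5A1, ATP5D, ATP5G1, CYC1 and SDHB) made up 11.6% of the members, a share near the 10.7% of all tested genes called lower, and 12.3% of all genes were called higher. The median log2 difference was -0.041, against -0.004 over all tested genes, and 32 of 43 estimates were below 0. Without shCHD4 1% O2 replicate 1 the count was 0, without shCHD4 20% O2 replicate 1 it was 1, and without either shSC 20% O2 library it was 9. Testing all rows unfiltered gave 0, leaving out the variance trend 1 and total-count scaling 10. Over all genes 1568, 1815 and 3085 were then called in either direction, against 2903 in the main test.

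ATP5A1, ATP5G1, CYC1 and SDHB were lower under both labels, 12 genes under shSC alone and ATP5D under the shCHD4 label alone. The difference of the O2 changes between the labels passed for 0 of the 43, beside 4.36% of all tested genes (2.21% higher under the shCHD4 label, 2.14% lower). At an unadjusted p under 0.05 limma and edgeR each found ATP5A1, ATP5J2, COX7B and SDHA. These were 4 of 43, beside 18.2% of all genes with either tool. DESeq2 found ATP5A1 and SDHA, 2 of 43 beside 11.9% of all genes. The estimates of all 4 genes were above 0, a smaller fall or none under the shCHD4 label. Over the members 31 of 43 estimates were above 0, with a median of 0.069, against 0.003 over all tested genes. The estimate with the smallest p was that of SDHA, 0.20 (SE 0.068, 95% interval 0.06 to 0.35, adjusted p = 0.101). No single member was thus shown to differ between labels in its O2 change. Without shSC 20% O2 replicate 1 the median of this difference was 0.037 over the members, against -0.002 over all tested genes.

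More members differed between the labels than with O2. At 20% O2, 29 of 43 were higher and 3 lower in the libraries labelled shCHD4, 67.4% and 6.98% of the members, beside 37% and 38.6% of all tested genes. At 1% O2, 30 were higher and 3 lower, 69.8% and 6.98%, beside 38.2% and 39.2%. The share called in either direction was near that of all genes (74.4% beside 75.6%, and 76.7% beside 77.4%), so the members differed from all genes in the split by direction and not in the total. Their median log2 difference was 0.207 at 20% O2 and 0.307 at 1% O2, against -0.009 and -0.007 over all tested genes. At both O2 levels the same 27 genes were higher, and COX7A2L, CYC1 and UQCRC2 were lower. After each library was centred on genes of like transcript length the split was 19 higher and 8 lower at 20% O2 and 24 and 6 at 1% O2, and the medians were 0.119 and 0.147.

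**Figure D3:**
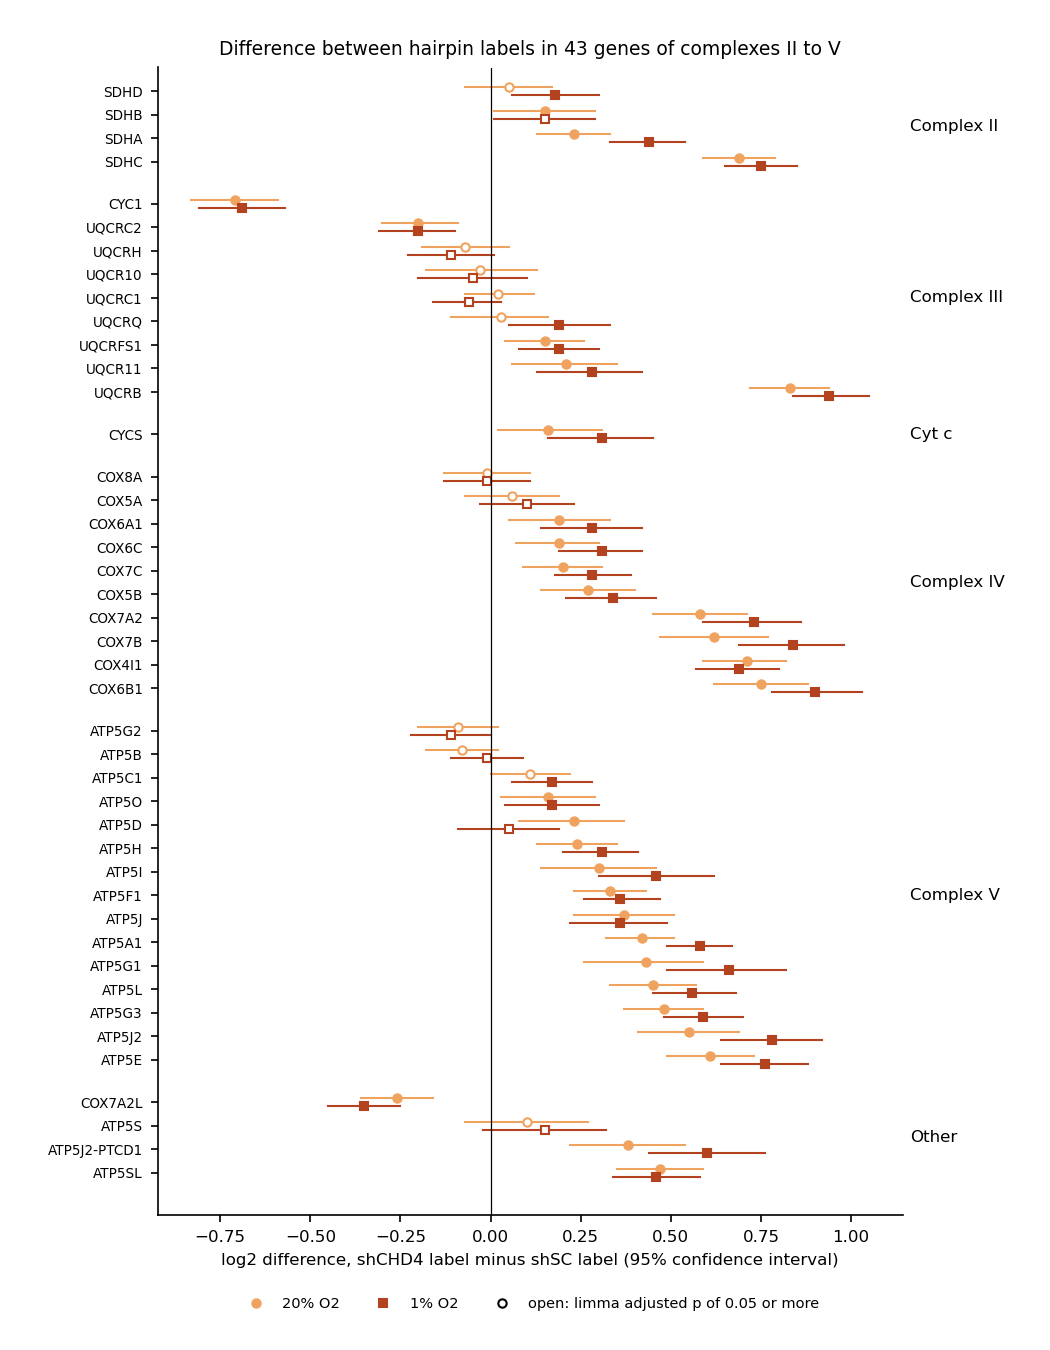
Log2 difference between the shCHD4 and the shSC label (horizontal axis) for each of the 43 tested genes, grouped by complex, at 20% O2 (orange circles) and 1% O2 (red squares), with 95% confidence intervals; filled symbols passed the limma test. Most points lie above 0, up to 0.94 for UQCRB at 1% O2, while CYC1 lies at -0.71 and -0.69.

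In complex II, SDHC, a membrane anchor, differed most between labels. It read 81.7, 79.4, 78.0 and 78.8 in the shSC libraries and 133, 128, 130.1 and 134 in those labelled shCHD4, and the labels did not overlap. The log2 difference was 0.69 at 20% O2 and 0.75 at 1% O2 (adjusted p = 1.72e-10 and 5.01e-11). SDHA was higher by 0.23 and 0.44 (adjusted p = 0.000279 and 1.51e-07). SDHD, the other anchor, had differences of 0.05 and 0.18, of which the second passed (adjusted p = 0.457 and 0.00839).

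Complex III had calls in both directions. UQCRB, a small subunit known as the ubiquinone-binding protein, read 70.3 to 77.2 in the 4 shSC libraries and 131 to 142 in the 4 labelled shCHD4, higher by 0.83 at 20% O2 and 0.94 at 1% O2 (adjusted p = 4.7e-11 and 7.03e-12). CYC1 was lower by log2 differences of -0.71 and -0.69 (adjusted p = 2.07e-09 and 2.65e-09), with 150.4 to 192 under shSC and 92.2 to 117 under the shCHD4 label. UQCRC2, a core protein, was lower by -0.20 at both O2 levels (adjusted p = 0.00175 and 0.00128), with 68.6 to 69.8 against 58.6 to 61.04, but was called higher relative to its neighbouring genes. Its partner UQCRC1 differed by 0.02 and -0.06 (adjusted p = 0.66 and 0.196).

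In complex IV, 8 of 10 tested subunits were higher under the shCHD4 label at each O2 level and none was lower, though relative to genes of like transcript length COX8A was lower at both levels and COX5A at 20% O2 (-0.14, adjusted p = 0.0183). COX4I1 read 113 to 124 in the shSC libraries and 184 to 201 in those labelled shCHD4, higher by 0.71 and 0.69 (adjusted p = 8.97e-10 and 1.27e-09). COX6B1 was higher by 0.75 and 0.90 (adjusted p = 1.98e-09 and 1.28e-10), with 37.1 to 45.8 against 70.8 to 78.7. COX7B (0.62 and 0.84) and COX7A2 (0.58 and 0.73) followed. COX8A, at 104 to 122 in all libraries, differed by -0.01 at both O2 levels (adjusted p = 0.901 and 0.845), and COX5A by 0.06 and 0.10 (adjusted p = 0.417 and 0.165).

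In complex V, 12 of 15 genes were higher at each O2 level and none was lower, though ATP5G2 was lower at both levels relative to genes of like length, and ATP5D at 1% O2 relative to its neighbours (-0.18, adjusted p = 0.0165). ATP5E (0.61 and 0.76), ATP5J2 (0.55 and 0.78), ATP5G3 (0.48 and 0.59), ATP5G1 (0.43 and 0.66) and ATP5A1 (0.42 and 0.58) were among them. Of the c-ring paralogs ATP5G1 and ATP5G3 were called higher, and ATP5G2 had estimates of -0.09 and -0.11 (adjusted p = 0.143 and 0.0669). ATP5B, the catalytic subunit, read 473 to 569 in all libraries and differed by -0.08 and -0.01 (adjusted p = 0.116 and 0.854), whereas ATP5A1, its partner in the catalytic head, read 257 to 330.1 under shSC and 386 to 444 under the shCHD4 label. All 7 genes of the peripheral stalk and membrane part were higher at both O2 levels. COX7A2L, the supercomplex factor, was lower by -0.26 and -0.35 (adjusted p = 0.00011 and 3.35e-06).

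Genes beside a member on its chromosome often differed between the labels as well. The 40 nearest tested genes of COX4I1 had a median log2 difference of 0.55 at 20% O2 and 0.52 at 1% O2, and relative to them COX4I1 was higher by 0.16 and 0.17 (adjusted p = 0.0137 and 0.0109). The neighbours of CYC1 were at -0.50 and -0.55, and relative to them CYC1 was lower by -0.21 and -0.14 (adjusted p = 0.00274 and 0.026). Those of UQCRB were at 0.37 and 0.46, which left UQCRB at 0.46 and 0.49. ATP5A1 went against its neighbours, which were at -0.40 and -0.33, and relative to them its difference was 0.82 and 0.91. UQCRC2 turned from lower to higher relative to its neighbours, at 0.16 and 0.13 (adjusted p = 0.0144 and 0.0441), since these were at -0.36 and -0.33. CYCS was higher on the deposited scale and at -0.24 (adjusted p = 0.00451) and -0.14 (adjusted p = 0.0743) relative to its neighbours, which were at 0.40 and 0.45. The neighbours of members moved by -0.11 to 0.08 with O2 under either label. The part of chromosomal position in the label differences was not tested beyond this centring.

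Label differences also varied with annotated transcript length. The tested members had a median transcript length of 753 bases, against 2567 over all tested genes, and 28 of the 43 were under 1000 bases. The 1076 other tested genes under 1000 bases had a median label difference of 0.108 at 20% O2 and 0.117 at 1% O2, against -0.024 and -0.022 for the 11181 longer ones. The members were above both: 0.232 and 0.307 for the 28 short members, and 0.148 and 0.169 for the 15 longer ones. For O2 under shSC the order was different, with -0.106 for the short and -0.152 for the longer members, and -0.034 and -0.007 for other short and longer genes. The part of transcript length in the label differences was not tested beyond the centring on genes of like length.

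**Figure D4:**
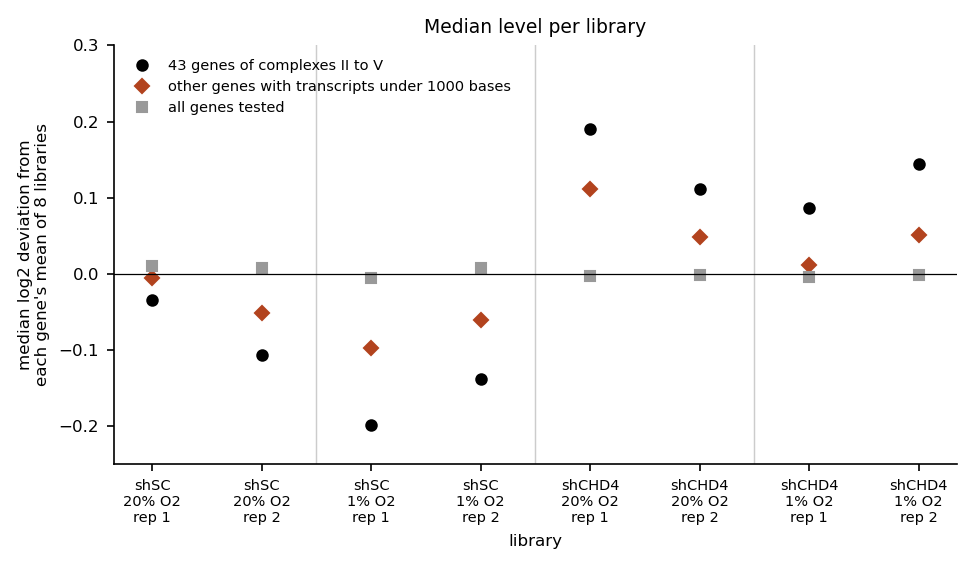
Median log2 deviation of the 43 tested members (black circles), of 1076 other tested genes with transcripts under 1000 bases (red diamonds) and of all tested genes (grey squares) from each gene's mean over the 8 libraries (vertical axis), per library. The members lie between -0.199 and -0.034 in the shSC libraries and between 0.086 and 0.19 in those labelled shCHD4, and the short genes shift the same way by less.

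Of the 29 genes higher under the shCHD4 label at 20% O2, 23 were also called higher relative to their neighbours, 19 relative to genes of like length, and 17 both ways. Of the 30 at 1% O2 the counts were 25, 24 and 20. Over all members, centring on neighbours gave 28 higher and 3 lower at 20% O2 and 30 and 4 at 1% O2. Other members thus gained a call, among them UQCR10 (0.34 and 0.31, adjusted p = 0.000418 and 0.000869) and COX5A (0.21 and 0.36). The medians relative to neighbours were 0.186 and 0.26. The 17 genes called higher both ways at 20% O2 included SDHA, SDHC, UQCRB, COX4I1, COX6B1, COX7A2, COX7B, ATP5A1, ATP5E, ATP5G1, ATP5G3, ATP5J2 and ATP5L. ATP5H, COX6A1 and COX6C lost their call at both O2 levels after centring on length, and COX5B, CYCS, UQCR11 and UQCRFS1 lost theirs at both after centring on neighbours. COX7A2L and CYC1 were lower at both O2 levels in both centrings. ATP5G2, COX8A and UQCRH, which did not differ on the deposited scale, were lower than genes of like length at both O2 levels, by -0.19 to -0.32.

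**Figure D5:**
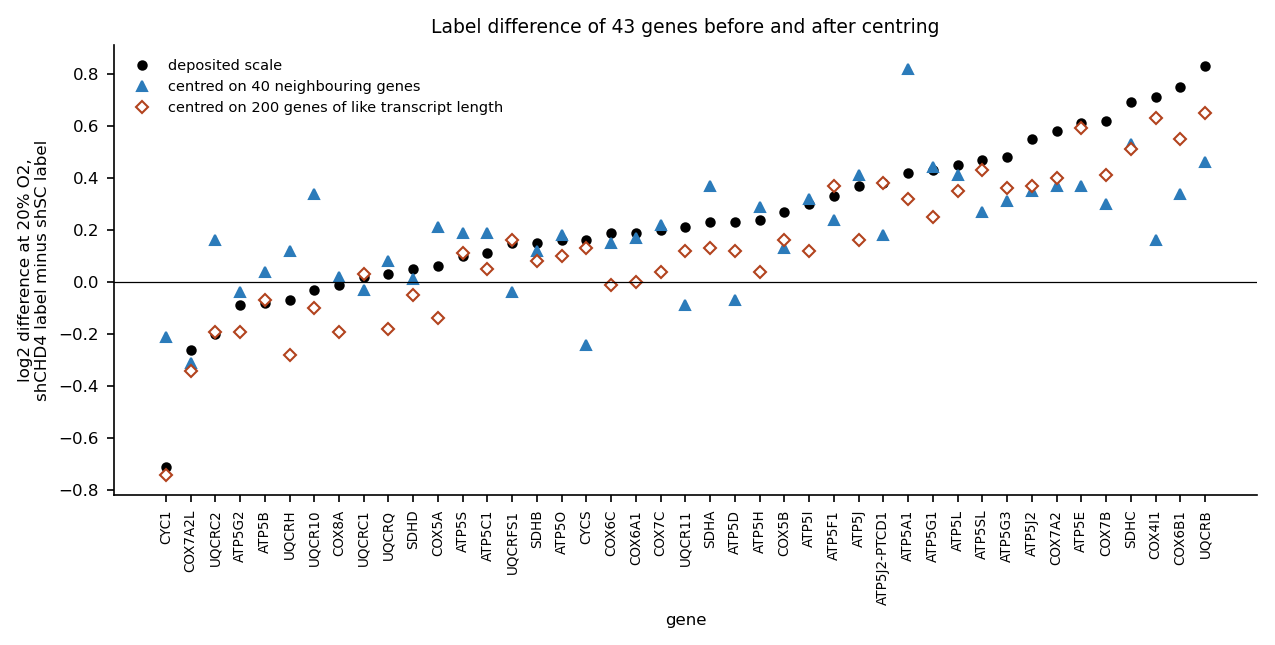
Log2 difference between the shCHD4 and the shSC label at 20% O2 (vertical axis) for the 43 tested genes (horizontal axis, ordered by the difference on the deposited scale), on the deposited scale (black circles), centred on 40 neighbouring genes (blue triangles) and centred on 200 genes of like transcript length (open red diamonds). COX4I1 drops from 0.71 to 0.16 when centred on its neighbours, and ATP5A1 rises from 0.42 to 0.82.

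The tissue isoforms among the members were all but absent. COX7A1, the muscle form of COX7A2, had 1 read over the 8 libraries, COX8C 3 and COX6B2, the testis form of COX6B1, 37. The processed copies UQCRHL, UQCRBP1 and ATP5EP2 had 25, 3 and 67 reads, and ATP5L2 had 9. These 7 genes were not tested. ATP5G2, ATP5S, COX8A, UQCR10, UQCRC1 and UQCRH were tested and passed in none of the 4 comparisons between groups on the deposited scale. Exons of 12 tested members overlap a gene on the opposite strand, and no source used here says whether the counting used strand, so reads of such pairs cannot be told apart.

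Other genes of the respiratory apparatus were read from lists of their own. A list of genes under other names held NDUFA4, now placed in complex IV, USMG5 and C14orf2 of the ATP synthase, and its inhibitory factor ATPIF1. All 4 were higher under the shCHD4 label at both O2 levels, by 0.32 to 1.05, beside 37% and 38.2% of all tested genes. Of these 4, NDUFA4 fell with 1% O2 under shSC (75 and 72.2 against 63.6 and 68.6, log2 difference -0.15, adjusted p = 0.046). Of 37 tested complex I genes, 15 fell and none rose with 1% O2 under shSC (median -0.149), beside 17.9% of all tested genes lower and 17.4% higher. Under the shCHD4 label 4 fell, a share near the 10.7% of all genes, and NDUFA5 rose, beside 12.3%. Between labels at 20% O2, 21 complex I genes were higher and 8 lower, beside 37% and 38.6% of all genes. NDUFB9 was the complex I gene with the largest label difference, with 48.0 to 59.5 in shSC libraries and 16.6 to 18.6 in those labelled shCHD4 (log2 difference at 20% O2 -1.66, adjusted p = 2.53e-13). Of the 13 citric acid cycle genes tested, 6 fell under shSC and none rose, beside 17.9% and 17.4% of all genes, among them CS, citrate synthase (-0.17, adjusted p = 0.00325), and FH, fumarase (-0.17, adjusted p = 0.0073). Under the shCHD4 label 5 of the 13 fell and SUCLG2, a subunit of succinate-CoA ligase, rose, beside 10.7% and 12.3% of all genes. Between labels at 20% O2, 9 were higher and 2 lower, beside 37% and 38.6%.

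Of 38 tested assembly factors, 10 fell and 2 rose with 1% O2 under shSC, beside 17.9% and 17.4% of all tested genes. Under the shCHD4 label 3 fell and 3 rose, shares below the 10.7% and 12.3% of all genes. COX18, which inserts a core subunit of complex IV into the membrane, fell by 0.35 under shSC (adjusted p = 0.000705), and LRPPRC, which stabilises mitochondrial messenger RNAs, by 0.18 (adjusted p = 0.00276). COA1 rose, with 50.2 and 51.8 against 73.8 and 71.5 under shSC (log2 difference 0.51, adjusted p = 1.02e-06) and by 0.37 under the shCHD4 label (adjusted p = 8.39e-05). Between labels at 20% O2, 19 assembly factors were higher and 8 lower, beside 37% and 38.6% of all genes. UQCC, a complex III factor, was higher by 0.75 (adjusted p = 4.42e-10) and LRPPRC lower by -0.72 (adjusted p = 1.79e-11).

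Most genes on a list of regulators of mitochondrial biogenesis were lower under the shCHD4 label at 20% O2. The list also holds POLG, POLG2 and C10orf2, which act in mitochondrial DNA replication, and C10orf2 and POLG were among the lower genes. Of 16 tested, 2 were higher and 11 lower there, beside 37% and 38.6% of all tested genes, with a median of -0.335 against -0.009. At 1% O2, 4 were higher and 8 lower, beside 38.2% and 39.2%. TFAM, which packages and transcribes mitochondrial DNA, was lower by -0.58 at 20% O2 (adjusted p = 1.13e-08) and ESRRA by -0.83 (adjusted p = 3.94e-09). With 1% O2, 5 of the 16 listed genes fell under each label, beside 17.9% of all genes under shSC and 10.7% under the shCHD4 label. GABPA, a subunit of the ETS factor GABP, rose under the shCHD4 label (0.35, adjusted p = 0.00392). PPARGC1A, the coactivator PGC-1 alpha, read 7.53 and 7.76 at 20% O2 and 3.83 and 4.23 at 1% O2 under shSC (log2 difference -0.85, adjusted p = 5.5e-06), and 8.05 and 8.62 against 6.11 and 6.29 under the shCHD4 label (-0.40, adjusted p = 0.0101). NRF1 differed by 0.00 under shSC (adjusted p = 0.991).

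Genes on a list of HIF-linked regulators of respiration changed in the same libraries. BNIP3, a mitophagy receptor, read 72.7 and 75.9 at 20% O2 and 394 and 441 at 1% O2 under shSC (log2 difference 2.48, adjusted p = 3.29e-16), and PDK1, the kinase that shuts off pyruvate dehydrogenase, 19.8 and 19.4 against 46.7 and 52.9 (1.32, adjusted p = 3.63e-10). BNIP3L (1.63), MXI1 (0.93) and LONP1, the protease known to degrade COX4I1 protein (0.33, adjusted p = 2.61e-05), rose as well. All 5 also rose under the shCHD4 label. ISCU, a scaffold of iron-sulfur cluster assembly, fell by 0.38 under shSC (adjusted p = 6.47e-05) and 0.31 under the shCHD4 label (adjusted p = 0.00094). CHCHD4 also fell under both labels, and HIGD1A under shSC (-0.20, adjusted p = 0.00384). NDUFA4L2 had 0 to 0.103 normalised read counts and was not tested.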

How the data were processed

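Polyadenylated RNA of 8 libraries was sequenced. Tools listed in the submitters' processing notes are edgeR, featureCounts, Picard 1.127, TopHat, FastQC 0.11.2 and bcl2fastq 2.17, with hg19 as the build; which annotation and strand setting were used is not stated there. The deposited values, named FPKM by the authors, are a signal proportional to reads, scaled by a single factor in each library without regard to length: 100% were whole multiples of 1 step per library within 0.01 reads, and the whole reads were recovered from the steps.

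For reads scaled by a single factor per library, the design kept limma as the main test, with edgeR and DESeq2 on recovered reads as alternatives. Genes with a mean of at least 1 (12645) were tested two-sided on log2(value + 0.5) with limma 3.58.1 (R 4.3.3). A single model held the 4 group means and a variance trend (residual degrees of freedom 4, prior 13.9), and p-values were adjusted by Benjamini-Hochberg over all tested genes at 0.05. Folds on this scale understate the change of low genes. The 5 comparisons were O2 under each label, label at each O2 level, and the difference of the O2 changes. An alternative used edgeR 4.0.16 and another DESeq2 1.42.0 on recovered reads. Intervals are at 95%. An exact permutation test was not used, since 2 libraries against 2 cannot reach the threshold.

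The members and gene lists were chosen with earlier results of these data known. Values per library are given for the member with the highest mean in each complex, up to 10 called members per comparison with the smallest p, and the paralog families. From the lists up to 4 called genes per comparison with the smallest p and any HIF-linked gene may be named. Other genes named from the lists, and members named as not called, were chosen after their values were seen. Total-count scaling and the centring on 200 genes of like transcript length (median length of a gene's protein-coding GENCODE transcripts) were added after the data were seen. All 50 symbols matched RefSeq names, 30 as symbols and 20 as synonyms. Promoter windows are RefSeq's on GRCh38.p14, another build than the files', and 35 members had one.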

Additional observations from a re-analysis of the deposited data

Results flagged for a closer look

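No member was called for a difference of its O2 change between the labels. Among the related genes on the lists, 3 passed that test in limma, beside 4.36% of all tested genes. They were 1 of 38 assembly factors, 1 of 37 complex I genes and 1 of 9 HIF-linked genes. The O2 change was higher under the shCHD4 label by 0.35 on the log2 scale for COX11 (adjusted p = 0.0233), a copper chaperone of complex IV, and by 0.41 for NDUFB3 (adjusted p = 0.04), a complex I subunit. For BNIP3, the mitophagy receptor, it was lower by -0.30 (adjusted p = 0.0369). The calls of COX11 and BNIP3 were lost in 9 of 21 alternatives each, and that of NDUFB3 in 11.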

How the results depend on the processing

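Of 35 member calls among those with the smallest p, tried under 21 alternatives each, 24 held under every alternative. Of the 735 values, 691 stayed past the threshold in the same direction, 44 missed it and 0 turned. Leaving out 1 library at a time gave 7 to 21 members lower with 1% O2 under shSC (medians -0.178 to -0.096), 0 to 9 under the shCHD4 label (medians -0.099 to 0.001), 21 to 29 higher and 3 to 4 lower between labels at 20% O2 (medians 0.167 to 0.251), 26 to 31 higher and 3 to 4 lower at 1% O2 (medians 0.268 to 0.338), and 0 to 1 with a difference of O2 changes (medians 0.027 to 0.11). For 1% O2 under shSC the members lower were 4 with no filter on low values, 6 without a variance trend, 10 with DESeq2 and 26 with total-count scaling, and the member higher was 1 (COX7A2L) with TMM factors, edgeR, centring on neighbouring genes or centring on genes of like length. Under the shCHD4 label the members lower were 0 with no filter, 1 without a variance trend and 10 with total-count scaling, and 1 member was higher with length centring. Between labels length centring gave 19 higher and 8 lower at 20% O2 and 6 lower at 1% O2. The medians moved by more than the spread between replicates (0.0443) with total-count scaling (-0.172 for O2 under shSC, 0.288 and 0.421 between labels at 20% and 1% O2), quantile normalization (0.298 and 0.39 between labels), length centring (-0.065, 0.119 and 0.147) and neighbour centring (0.26 at 1% O2). Total-count scaling moved the median of all genes by 0.113 between labels at 1% O2. No filter tests more genes of low counts, and calls over all genes were fewer there too (3231 against 4456 for O2 under shSC). The cause of the other shifts was not tested. Same-numbered replicates did not deviate together (correlations from -0.121 to 0.124), so the numbers do not pair the libraries. With the replicate number as a block the calls were 16 lower and 5 lower for O2 under the 2 labels, 29 higher and 3 lower between labels at 20% O2, 31 higher and 3 lower at 1% O2, and 0 for the difference of O2 changes.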
